A study of Mus musculus with 11 samples.

Results

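The genes described here encode the enzymes, membrane proteins and proton pump of the lysosome, in lungs of Balb/c mice with or without the translation repressors 4E-BP1 and 4E-BP2. They were taken from a list of 56 names that share this function, and the brightest probe set on average stood for each gene. Of the 56, 53 had a probe set that matched the gene in the RefSeq table, out of 14351 genes with one, and 48 were bright enough to test, out of 8085 genes. Dnase2a, Cd63 and Atp6v0c had no matched probe set. The arrays fell into 4 groups: total RNA of 4ebp1-/-/4ebp2-/- lung (3 arrays), total RNA of wild-type lung (3 arrays), polysomal RNA of 4ebp1-/-/4ebp2-/- lung (3 arrays) and polysomal RNA of wild-type lung (2 arrays). Every mouse, of either genotype, ate the purified diet AIN-93M from 5 weeks of age. Polysomal RNA was the pool of fractions 7 to 10 of a gradient cut into 10, which carried 3 or more ribosomes per transcript, and 100 ng of RNA was labelled for every array in a kit that amplifies it in repeated rounds.

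The knockout mice came from another laboratory and the wild-type mice from a commercial breeder, so genotype and colony cannot be told apart. Sex, age at sampling and whether each array was its own mouse are not given in the sources used here, so p-values measure the spread between arrays, which may be partly technical. The RNA was of whole lung, in which fewer cells of a type and less RNA per cell cannot be told apart. For arrays, their number limits the precision, and the wild-type polysomal group had only 2.

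Lysosomes are acid compartments in which proteins, glycans, lipids and nucleic acids taken up or recycled by the cell are broken down. The vacuolar proton pump acidifies them, soluble hydrolases do the digestion, and heavily glycosylated membrane proteins line the wall. Many lysosomal genes carry an E-box in the promoter that the transcription factor TFEB binds, and TFEB is held in the cytoplasm by mTORC1, the same kinase that phosphorylates the 4E-BPs. 4E-BPs bind the cap-binding factor eIF4E and so hold back the start of translation. In lung, lysosomal genes are abundant in alveolar macrophages, which clear particles and spent surfactant, and in alveolar type 2 cells, whose lamellar bodies are lysosome-related stores of surfactant.

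The targeted gene Eif4ebp2 was lower in knockout lung in both kinds of RNA, at -1.90 log2 units for total (SE 0.25, limma adjusted p = 0.0016) and -2.07 for polysomal (SE 0.28, adjusted p = 0.0025). Eif4ebp1 was lower by less (-0.40, SE 0.11, adjusted p = 0.033 in total RNA, and -0.67, SE 0.13, adjusted p = 0.0096 in polysomal RNA, limma). Whether its probes fall inside the deletion is unknown, so it is no check of the labels. Lung markers were bright on every array: the 9 tested alveolar type 2 markers had a mean log2 level of 13.29 to 13.38 on the knockout total arrays, 12.76 to 13.04 on the wild-type total arrays, 14.11 to 14.14 on the knockout polysomal arrays and 14.14 to 14.16 on the wild-type polysomal arrays. Probe sets too dim to test had medians of 2.34 to 2.39 log2 on the knockout total arrays, 2.43 to 2.49 on the wild-type total arrays, 2.30 to 2.32 on the knockout polysomal arrays and 2.33 to 2.35 on the wild-type polysomal arrays, and this is the floor referred to here.

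Most tested members of the lysosomal list had higher signal in polysomal than in total RNA in both genotypes, and the excess was large for several of them. In wild-type lung 42 of 48 tested members were higher in polysomal than in total RNA and none was lower, with a median difference of 1.38 log2 units. In knockout lung 40 were higher and 1, Galc, was lower, with a median of 0.93. The 42 and the 40 include Sppl2a, Ctsf and Galns, which were bright enough to test only on polysomal arrays. Over the 8085 genes tested, 72.4% passed in wild type (44.5% higher and 27.9% lower, median 0.22) and 65.2% in knockout (39.5% higher and 25.7% lower, median 0.13). An excess was also seen outside the list: all 8 endothelial markers were higher in each genotype, with medians of 2.53 in wild type and 1.78 in knockout. Of 6 alveolar type 1 markers 2 were higher in each genotype, while 3 were lower in wild type and 1 in knockout. The test was limma's moderated test, two-sided, with Benjamini-Hochberg adjustment over all probe sets tested and a threshold of 0.05. The arrays of the groups compared did not overlap for any member that passed. That share was not counted over all genes that passed, so it only describes the members. The same mass of RNA was labelled for each array and the arrays have near-equal medians, so a difference here is a share of the labelled RNA relative to other messages, not a number of molecules on ribosomes.

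Among the proteases, 12 of 14 were higher in polysomal RNA in each genotype. Of these, Sppl2a and Ctsf were bright enough to test only on polysomal arrays. Ctsd encodes cathepsin D, the main aspartic protease of lysosomes. It was at 13.59, 13.78 and 13.68 log2 on the knockout polysomal arrays, against 11.32, 11.51 and 11.65 on the knockout total arrays. On the wild-type polysomal arrays it was at 13.74 and 13.70, against 10.09, 10.37 and 9.63 on the wild-type total arrays. Every polysomal array lay above every total array, by 2.20 in knockout (SE 0.17, limma adjusted p = 2.9e-06) and by 3.69 in wild type (SE 0.19, adjusted p = 1.6e-07), which are 4.58-fold and 12.9-fold. Ctsz, the carboxypeptidase cathepsin Z, differed by 2.36 in knockout (SE 0.13) and by 3.23 in wild type (SE 0.15), and Lgmn, the asparaginyl endopeptidase legumain, by 2.11 (SE 0.12) and 2.98 (SE 0.13). Ctsk, the collagen-degrading cathepsin K of osteoclasts and some macrophages, differed by 0.79 in knockout (SE 0.26, limma adjusted p = 0.023) and by 1.87 in wild type (SE 0.29, adjusted p = 0.00024). The knockout call for Ctsk was lost without knockout total replicate 1 or without knockout polysomal replicate 1 or 2, with an adjusted p of up to 0.086.

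Other cathepsins were also higher in polysomal RNA. Ctsb, the broadly expressed cathepsin B, was at 9.65, 10.06 and 9.82 log2 on the knockout polysomal arrays, against 8.83, 9.19 and 9.14 on the knockout total arrays. In wild type it was at 9.87 and 10.10 on the polysomal arrays, against 8.75, 9.13 and 8.45 on the total arrays. The difference was 0.79 in knockout (SE 0.18, limma adjusted p = 0.0035) and 1.21 in wild type (SE 0.20, adjusted p = 0.00039). Ctsl, Ctsh, Ctsc and Ctss, the cathepsins L, H, C and S, were higher by 0.93, 0.44, 0.51 and 0.54 in knockout and by 1.29, 0.76, 0.69 and 0.50 in wild type. Cathepsin C activates the proteases of neutrophil and lymphocyte granules, and cathepsin S trims the invariant chain of MHC class II. Ctsc was at 15.16, 15.32 and 15.40 log2 on the knockout polysomal arrays, against 14.70, 14.82 and 14.84 on the knockout total arrays, and at 15.30 and 15.16 on the wild-type polysomal arrays, against 14.59, 14.73 and 14.30 on the wild-type total arrays. Ctsa, which protects and activates other lysosomal enzymes, was higher by 0.55 in knockout (SE 0.12) and by 1.19 in wild type (SE 0.13). Ctso and Tpp1, the tripeptidase lost in one form of Batten disease, did not pass in either genotype, and Ctso stayed between 8.15 and 8.25 log2 on all 11 arrays.

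Sppl2a and Ctsf had the largest polysomal values relative to total RNA, from total RNA levels near or under the floor. Sppl2a encodes an intramembrane protease that cleaves the invariant chain stub. It was at 9.40, 9.69 and 9.89 log2 on the knockout polysomal arrays, against 3.19, 2.91 and 2.48 on the knockout total arrays, and at 9.59 and 9.43 on the wild-type polysomal arrays, against 3.02, 2.78 and 2.98 on the wild-type total arrays. The fitted differences were 6.80 in knockout (SE 0.18, limma adjusted p = 1.8e-08) and 6.58 in wild type (SE 0.20, adjusted p = 1.9e-08). Ctsf, the cysteine protease cathepsin F, was at 5.34, 6.37 and 6.33 on the knockout polysomal arrays, against 1.61, 2.15 and 1.62 on the knockout total arrays. In wild type Ctsf was at 8.66 and 7.63 on the polysomal arrays, against 1.63, 1.64 and 1.63 on the total arrays, and its fitted differences were 4.22 in knockout (SE 0.32) and 6.51 in wild type (SE 0.35). With total values at the floor these sizes are not well measured. Sppl2a, Ctsf and Galns were bright enough to test only on polysomal arrays, so their excess was part of what admitted them to the test.

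Pld3, a membrane protein with exonuclease activity on single-stranded nucleic acid in endolysosomes, was at 11.16, 11.51 and 11.30 log2 on the knockout polysomal arrays, against 7.42, 7.71 and 8.06 on the knockout total arrays. On the wild-type polysomal arrays it was at 12.01 and 11.74, against 5.91, 6.23 and 4.53 on the wild-type total arrays. Its difference was 3.59 in knockout (SE 0.37, limma adjusted p = 1.9e-05) and 6.32 in wild type (SE 0.41, adjusted p = 6.5e-07).

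All 8 tested hydrolases of glycans were higher in polysomal RNA in both genotypes. The difference ran over 0.56 to 3.30 in knockout and over 1.32 to 3.66 in wild type. Galns, which gave the 3.30, was bright enough to test only on polysomal arrays. Hexa, the alpha subunit of beta-hexosaminidase, which is lost in Tay-Sachs disease, was at 13.98, 14.19 and 14.08 log2 on the knockout polysomal arrays, against 12.67, 12.79 and 12.74 on the knockout total arrays. In wild type it was at 14.15 and 13.97 on the polysomal arrays, against 12.46, 12.35 and 12.48 on the total arrays. Its difference was 1.35 in knockout (SE 0.09, limma adjusted p = 1.2e-06) and 1.63 in wild type (SE 0.10, adjusted p = 4.6e-07). Naglu, an enzyme of heparan sulfate breakdown, differed by 2.99 in knockout (SE 0.28) and by 3.66 in wild type (SE 0.31), and Man2b1, lysosomal alpha-mannosidase, by 1.76 (SE 0.10) and 2.38 (SE 0.12). Manba, Gaa and Glb1 differed by 1.66, 1.12 and 0.63 in knockout and by 1.82, 1.67 and 1.32 in wild type. They encode beta-mannosidase, the acid alpha-glucosidase that digests glycogen, and acid beta-galactosidase. Galns, a sulfatase of keratan sulfate, was at 6.55, 6.56 and 6.21 on the knockout polysomal arrays, against 2.55, 2.61 and 4.27 on the knockout total arrays, and at 5.53 and 6.72 on the wild-type polysomal arrays, against 3.27, 2.86 and 2.66 on the wild-type total arrays.

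The 5 members under the filter were also glycan hydrolases: Gla, Gusb, Idua, Ids and Arsb. They lay between 1.88 and 4.55 log2 on all arrays, so neither their level nor its change can be read from these arrays. With no filter on low values, which admits these 5, 41 members were higher and 2 lower in polysomal RNA in knockout, beside 3029 higher and 1992 lower of the 8085 brighter genes in that fit. In wild type 46 members were higher and 2 lower, beside 3602 higher and 2337 lower of those genes.

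Of the 10 genes of lipid breakdown and lipid carriage, 5 were higher and 1 lower in polysomal RNA in knockout, and 8 were higher and none lower in wild type. Psap encodes prosaposin, the precursor of the saposins that present sphingolipids to their hydrolases. It was at 12.47, 12.65 and 12.71 log2 on the knockout polysomal arrays, against 9.60, 9.58 and 9.52 on the knockout total arrays, and at 13.07 and 12.57 on the wild-type polysomal arrays, against 8.81, 8.79 and 8.91 on the wild-type total arrays. The difference was 3.04 in knockout (SE 0.13, limma adjusted p = 1.3e-07) and 3.99 in wild type (SE 0.14, adjusted p = 3.1e-08). Npc1 and Npc2 act together in moving cholesterol out of the lysosome. Npc1, the membrane transporter, differed by 1.52 in knockout (SE 0.16) and by 2.45 in wild type (SE 0.18). Npc2, the soluble carrier, was at 14.61, 14.66 and 14.70 on the knockout polysomal arrays, against 14.50, 14.56 and 14.57 on the knockout total arrays, a difference that did not pass (0.11, SE 0.07, limma adjusted p = 0.20). In wild type Npc2 was at 14.73 and 14.79 on the polysomal arrays, against 14.36, 14.48 and 14.42 on the total arrays, a difference of 0.34 (SE 0.08, adjusted p = 0.0039) that became -0.01 after quantile normalization.

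Galc, the galactosylceramidase lost in Krabbe disease, ran the other way. It was at 6.25, 6.17 and 6.38 log2 on the knockout polysomal arrays, against 6.79, 6.50 and 6.55 on the knockout total arrays, a difference of -0.34 (SE 0.11, limma adjusted p = 0.020). That call was lost without knockout total replicate 1 or knockout polysomal replicate 2, with an adjusted p of up to 0.081. In wild type Galc was at 6.46 and 6.23 on the polysomal arrays, against 6.71, 6.55 and 6.56 on the total arrays (-0.26, SE 0.12, adjusted p = 0.086). Gm2a, the activator protein of GM2 ganglioside breakdown, passed in neither genotype, with -0.03 in knockout and 0.04 in wild type. Arsa, the sulfatide sulfatase, was at 0.33 in knockout (SE 0.21, limma adjusted p = 0.20) and at 1.21 in wild type (SE 0.23, adjusted p = 0.00088). Lipa, the acid lipase of cholesteryl esters, was at 0.14 in knockout (SE 0.10, limma adjusted p = 0.26) and at 0.35 in wild type (SE 0.12, adjusted p = 0.020), and its wild-type call was lost without wild-type total replicate 2 or wild-type polysomal replicate 1.

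The membrane proteins were tested with 2 genes of another kind, Grn and the transcription factor Tfeb. Of these 6 genes, 5 were higher in polysomal RNA in each genotype, all but Tfeb in knockout and all but Lamp2 in wild type. Lamp1, a major glycoprotein of the lysosomal wall, was at 14.21, 14.21 and 14.10 log2 on the knockout polysomal arrays, against 13.73, 13.84 and 13.72 on the knockout total arrays. In wild type it was at 14.11 and 14.24 on the polysomal arrays, against 13.56, 13.46 and 13.47 on the total arrays, and the differences were 0.41 in knockout (SE 0.08) and 0.68 in wild type (SE 0.09). Neither difference of Lamp1 passed after quantile normalization. Mcoln1, the calcium channel mucolipin 1, differed by 1.41 in knockout (SE 0.14) and by 2.17 in wild type (SE 0.16). Scarb2, a membrane protein that sorts cargo to the lysosome, differed by 1.24 and 1.78. Grn, progranulin, was at 14.07, 14.17 and 14.20 on the knockout polysomal arrays, against 13.17, 13.20 and 13.29 on the knockout total arrays, and at 14.34 and 14.24 on the wild-type polysomal arrays, against 13.10, 12.97 and 13.30 on the wild-type total arrays, with differences of 0.93 (SE 0.10) and 1.17 (SE 0.11). Tfeb was at 0.18 in knockout (SE 0.21, limma adjusted p = 0.48) and at 0.85 in wild type (SE 0.23, adjusted p = 0.0071), a call lost without wild-type polysomal replicate 1 (adjusted p = 0.052).

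Lamp2, the partner of Lamp1 and a receptor of chaperone-mediated autophagy, had a pair of probe sets that did not give the same picture. By the brighter one it was at 13.45, 13.66 and 13.45 log2 on the knockout polysomal arrays, against 13.02, 13.22 and 13.08 on the knockout total arrays (0.41, SE 0.09, limma adjusted p = 0.0027). In wild type it was at 13.27 and 13.25 on the polysomal arrays, against 13.22, 13.11 and 13.19 on the total arrays (0.09, SE 0.10, adjusted p = 0.46), and this value was -0.39 after quantile normalization. By the dimmer one the difference was 1.89 in knockout (SE 0.14, limma adjusted p = 2.5e-06) and 2.18 in wild type (SE 0.16, adjusted p = 1.2e-06). Lamp2 is spliced into isoforms that differ at the end of the message, and which isoform each probe set reads was not tested. The pair of probe sets of Ctsa held identical values, so Ctsa has 1 measurement.

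All 9 tested subunits and accessory proteins of the proton pump were higher in polysomal RNA in knockout, and 8 of 9 in wild type. After quantile normalization Atp6v1d, Atp6v1e1 and Atp6ap2 no longer passed in knockout. In wild type Atp6v1d and Atp6v1e1 then no longer passed, and Atp6ap2 passed as lower. The catalytic subunit gene Atp6v1a differed by 2.20 in knockout (SE 0.18) and by 3.26 in wild type (SE 0.20), Atp6v1h by 2.66 (SE 0.22) and 3.00 (SE 0.25), and Atp6v1b2 by 1.62 (SE 0.16) and 2.48 (SE 0.18). Atp6v0d1, part of the stalk that joins the membrane and catalytic sectors, differed by 1.44 in knockout (SE 0.14) and by 2.43 in wild type (SE 0.16). Atp6v1e1 was at 14.40, 14.37 and 14.39 log2 on the knockout polysomal arrays, against 14.13, 14.10 and 14.05 on the knockout total arrays (0.29, SE 0.07, limma adjusted p = 0.0040), and this value was -0.01 after quantile normalization. In wild type it was at 14.51 and 14.48 on the polysomal arrays, against 13.91, 13.94 and 13.94 on the total arrays (0.57, SE 0.08, adjusted p = 8.5e-05). Atp6ap2, the accessory protein also known as the prorenin receptor, was higher by 0.36 in knockout (SE 0.10, adjusted p = 0.0084) and at -0.07 in wild type (SE 0.11, adjusted p = 0.60).

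**Figure D1:**
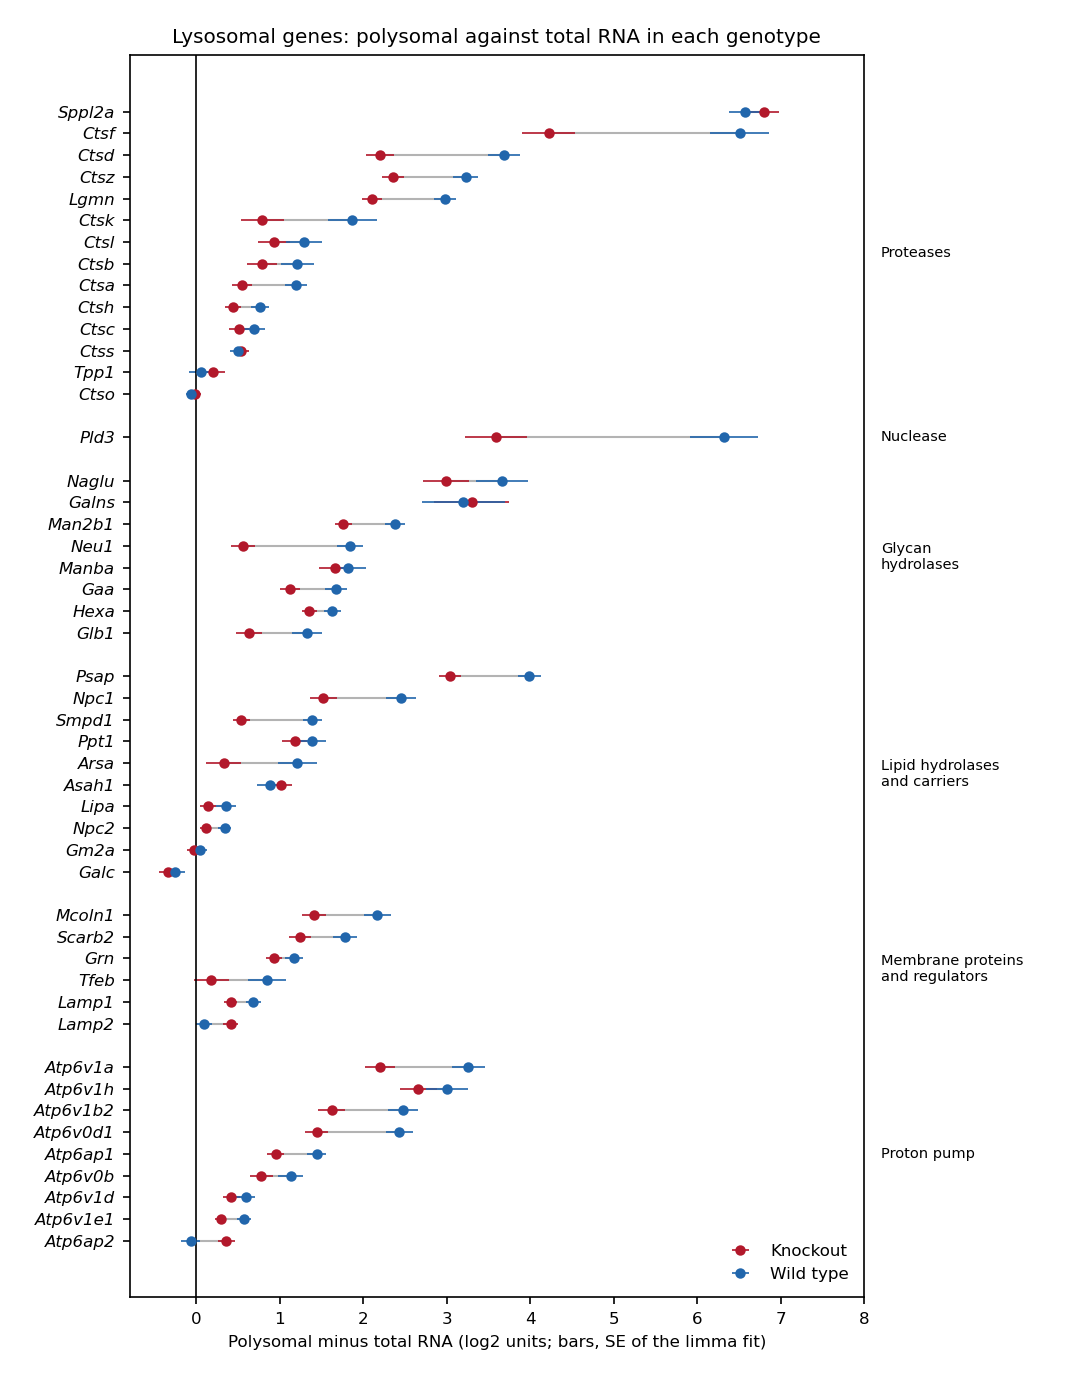
Each row is 1 tested lysosomal gene, grouped by role, and the x axis is the polysomal minus total difference in log2 units with the SE of the fit as bars, for knockout (red) and wild type (blue). Points to the right of 0 are messages with more signal in polysomal RNA, and for 40 of the 48 genes the knockout point lies to the left of the wild-type point.

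In total RNA, knockout lung had more signal for 14 of the 48 tested lysosomal genes and less for none. The risers were Ctsd, Ctsz and Lgmn among the proteases, Pld3, Hexa, the lipid genes Arsa, Smpd1 and Psap, the membrane proteins Lamp1 and Mcoln1, and 4 proton pump genes. The median over the 48 was 0.23, and 34 did not pass. That median was 0.15 after quantile normalization, 0.13 with array medians made equal and 0.14 without wild-type total replicate 3. Over all 8085 genes tested 23.2% passed, 17.2% higher and 5.97% lower, with a median of 0.09. The split depended on scaling. After quantile normalization 10 members were higher and 2 lower, against 1199 higher and 779 lower of all genes, and with array medians made equal 9 members were higher and 2 lower, against 1048 and 852 of all genes, compared with 1393 higher and 483 lower as deposited. The 2 lower members under both scalings were Gm2a and Atp6ap2. With no filter on low values 18 members were higher and 3 lower, the 3 being Ids, which is too dim to read, Gm2a and Atp6ap2, beside 1532 higher and 588 lower of the 8085 brighter genes.

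Pld3 had the largest rise. As given above it lay between 7.42 and 8.06 log2 on the knockout total arrays, against 4.53 to 6.23 on the wild-type total arrays, a rise of 2.17 (SE 0.37, limma adjusted p = 0.0040), or 4.51-fold. Ctsd lay between 11.32 and 11.65 in knockout, against 9.63 to 10.37 in wild type, a rise of 1.46 (SE 0.17, adjusted p = 0.00087), or 2.75-fold. The gap between the groups was larger than the spread within either for Ctsd, and for Pld3 the third wild-type array stood low. Ctsz was at 10.92, 11.47 and 11.26 log2 on the knockout total arrays, against 10.32, 10.34 and 10.15 on the wild-type total arrays, a rise of 0.95 (SE 0.13, limma adjusted p = 0.0019). Lgmn, at 9.61 to 9.82 in knockout against 8.85 to 9.14 in wild type, rose by 0.69 (SE 0.12, adjusted p = 0.0038).

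The proton pump contributed 4 risers of 9 tested genes, from both of its sectors. Atp6v1a was at 10.10, 10.66 and 10.24 log2 on the knockout total arrays, against 9.46, 8.97 and 8.90 on the wild-type total arrays, a rise of 1.22 (SE 0.18, limma adjusted p = 0.0024), or 2.33-fold. Atp6v0d1 was at 11.76, 12.00 and 11.72 in knockout, against 10.97, 11.22 and 10.64 in wild type, a rise of 0.88 (SE 0.14, adjusted p = 0.0036). Atp6v1b2, the subunit that pairs with the catalytic one, rose by 0.71 (SE 0.16, adjusted p = 0.013), and Atp6v0b, of the membrane sector, by 0.45 (SE 0.14, adjusted p = 0.041). Atp6v1d, Atp6v1e1, Atp6v1h and Atp6ap1 had differences of 0.02 to 0.43 and did not pass, and Atp6ap2 was at -0.26 (SE 0.10, adjusted p = 0.082).

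Among lipid genes the risers were Psap (0.73, SE 0.13, limma adjusted p = 0.0042), Arsa (0.70, SE 0.21, adjusted p = 0.038) and Smpd1 (0.62, SE 0.10, adjusted p = 0.0030), the acid sphingomyelinase lost in Niemann-Pick disease types A and B. Psap varied little within groups, with knockout arrays at 9.52 to 9.60 and wild-type arrays at 8.79 to 8.91. Hexa rose by 0.30 (SE 0.09, limma adjusted p = 0.038), Lamp1 by 0.27 (SE 0.08, adjusted p = 0.040) and Mcoln1 by 0.47 (SE 0.14, adjusted p = 0.037). Mcoln1 was at 7.27, 7.40 and 7.37 log2 on the knockout total arrays, against 6.83, 6.91 and 6.89 on the wild-type total arrays, so the groups stood apart although the rise was modest. Members that did not pass included Ctsb (0.27, SE 0.18, adjusted p = 0.31), Ctsc (0.24, SE 0.12, adjusted p = 0.17), Grn (0.09, SE 0.10, adjusted p = 0.53), Lamp2 (-0.07, SE 0.09, adjusted p = 0.64) and Tfeb (-0.10, SE 0.21, adjusted p = 0.78).

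The calls for Ctsd, Ctsz, Lgmn, Pld3, Smpd1, Psap, Atp6v0d1, Atp6v1a and Atp6v1b2 held whichever of the 11 arrays was left out. Those for Hexa, Mcoln1, Lamp1, Atp6v0b and Arsa were lost when any 1 of 6, 6, 7, 7 and 8 of the arrays was left out, with an adjusted p of up to 0.14. The count of risers was 9 without any 1 of the 3 knockout total arrays or without wild-type total replicate 1. Over all genes 783 to 1065 rose in those fits, against 1393 with every array.

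**Figure D2:**
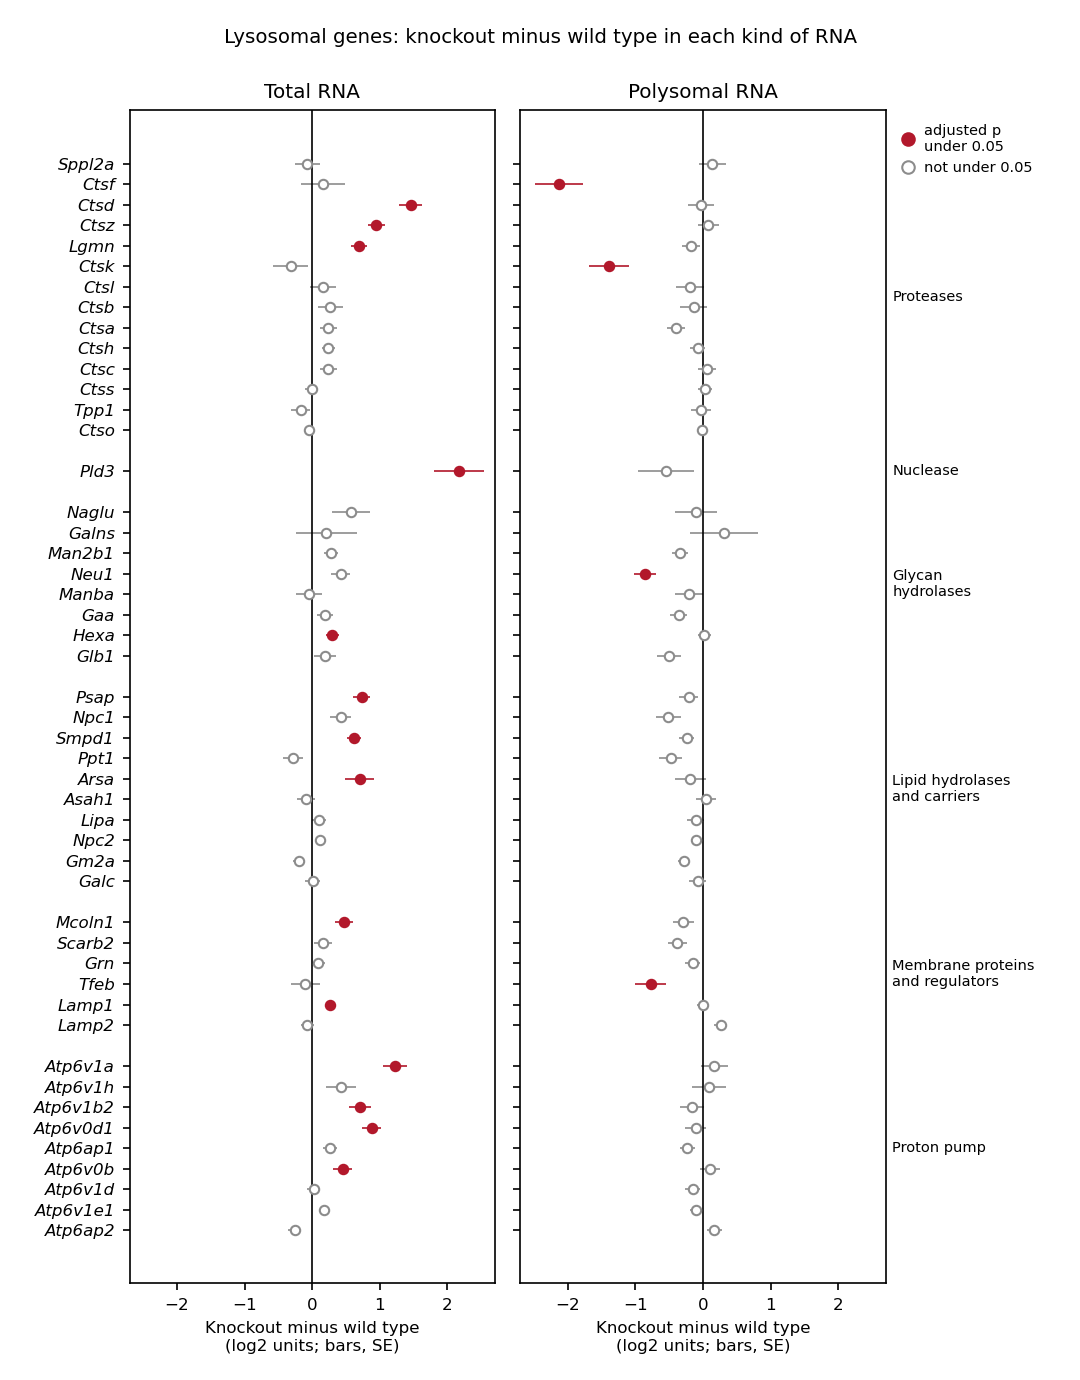
Each row is 1 tested lysosomal gene, and the x axis is knockout minus wild type in log2 units with the SE of the fit as bars, in total RNA (left) and in polysomal RNA (right). Filled red points had an adjusted p under 0.05: 14 lie to the right of 0 in total RNA and 4 to the left of 0 in polysomal RNA.

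Some cell type markers also differed in total RNA. Over all genes 17.2% rose and 5.97% fell, so a count such as 1 of 6 or 2 of 11 rising is close to the share over all genes. Of 8 endothelial markers 6 rose in knockout lung, with mean log2 levels over the list of 9.83 to 10.06 on the knockout arrays, against 9.06 to 9.16 on the wild-type arrays. Of 8 markers of interstitial macrophages and monocytes 4 rose, among them C1qa (4.01, SE 0.22) and Lyz2 (0.79, SE 0.18, lysozyme, itself a lysosomal enzyme), with list means of 9.27 to 9.45 in knockout, against 8.48 to 8.61 in wild type. C1qa, however, lay at 3.49 to 3.93 on the wild-type total arrays, not far above the floor. Of 9 alveolar type 2 markers 4 rose and none fell, among them Napsa (1.01, SE 0.12), an aspartic protease that processes surfactant proteins. Of 11 alveolar macrophage markers 2 rose, Car4 (0.76, SE 0.14) and Itgax (0.54, SE 0.12), and 4 fell, among them Chil3 (-0.63, SE 0.15) and Siglecf (-0.58, SE 0.12), with list means of 10.51 to 10.58 in knockout, against 10.56 to 10.86 in wild type. Among the other lists, 2 of 6 neutrophil, 2 of 6 antigen presenting, 2 of 6 alveolar type 1, 1 of 6 fibroblast, 3 of 6 heart muscle and 1 of 2 red cell markers rose, 1 of 6 club and ciliated markers rose and 1 fell, and none of 4 lymphocyte markers passed. The part of these cell types in the lysosomal changes was not tested.

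The E-box core CACGTG, which reads the same on both strands, was present in the promoter windows of 14 of the 41 tested members that had a window (34.1%), against 12.2% of the 6478 tested genes with a window. A window here is the sequence from 250 bases before to 50 bases after an annotated start. Its extended form TCACGTGA, which contains the core, reads the same on both strands and is part of the element that TFEB is known to bind, was present in 5 of the 41 (12.2%), against 2.32% of the tested genes. Over all 32851 windows the shares were 7.15% for the core and 0.974% for the extended form. Of the 14 members with the core, 8 rose in total RNA, with a median of 0.46, and of the 27 without it 5 rose, with a median of 0.09. Of the 5 with the extended form, Ctsd, Atp6v1a, Atp6v0d1 and Mcoln1 rose and Ctsa did not pass (0.24, SE 0.12, limma adjusted p = 0.16). How many of all 788 tested genes with the core, or 150 with the extended form, rose was not counted, so these rises have no background share. Ctsa and Lgmn were counted although each also had a window without the core. These are counts of letters in a window, with no test, and say nothing of binding. The stretches of the 5 members with the extended form, and that of Lamp1, which held 4 cores, are shown. They were chosen with the rises in total RNA known. All but Ctsa passed there, and the calls for Mcoln1 and Lamp1 were lost without some arrays. Sequences are from RefSeq on build GRCm38.p6, 5′ to 3′ on the strand of the gene, with cores and extended forms in capitals.
Ctsd (chr7:142387898-142387947, minus strand): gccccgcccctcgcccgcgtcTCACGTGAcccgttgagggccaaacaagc
Atp6v1a (chr16:44139363-44139412, minus strand): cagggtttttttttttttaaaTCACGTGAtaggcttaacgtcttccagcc
Atp6v0d1 (chr8:105566061-105566089, minus strand): aagagccaggccctactgcggTCACGTGA
Mcoln1 (chr8:3500426-3500501, plus strand): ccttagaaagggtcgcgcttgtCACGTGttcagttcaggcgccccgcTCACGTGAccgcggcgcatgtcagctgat
Ctsa (chr2:164833739-164833784, plus strand): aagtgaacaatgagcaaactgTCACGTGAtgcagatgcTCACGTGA
Lamp1 (chr8:13159078-13159160, plus strand): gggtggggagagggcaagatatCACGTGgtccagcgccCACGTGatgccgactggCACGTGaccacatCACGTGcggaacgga

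In polysomal RNA, few lysosomal messages passed the test between the genotypes. None of the 48 tested members was higher in knockout and 4 were lower, Ctsf, Ctsk, Neu1 and Tfeb, with a median of -0.14 over the 48. Of all genes tested 15.1% passed, 8.36% higher and 6.77% lower, with a median of -0.01, so a count of 4 in 48 lower is close to the share over all genes. With array medians made equal 6 members were lower and none higher, and over all genes the split was then 559 higher and 680 lower, against 676 higher and 547 lower as deposited.

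Ctsf fell most, by 2.13 log2 units (SE 0.35, n = 3 knockout and 2 wild type, limma adjusted p = 0.0050), or 4.39-fold. Its knockout polysomal arrays lay between 5.34 and 6.37, against 7.63 and 8.66 on the wild-type arrays, and the 2 wild-type arrays themselves differed by about as much as the knockout arrays did. Ctsk was at 10.18, 10.21 and 10.11 log2 on the knockout polysomal arrays, against 12.05 and 11.07 on the wild-type polysomal arrays, a fall of 1.39 (SE 0.29, limma adjusted p = 0.014). The knockout arrays were close together and the wild-type arrays wide apart, and without wild-type polysomal replicate 1 the adjusted p for Ctsk was 0.084. Neu1, the lysosomal sialidase, which needs Ctsa for its activity, was at 5.65, 5.79 and 5.70 on the knockout arrays, against 6.38 and 6.77 on the wild-type arrays, a fall of 0.86 (SE 0.16, adjusted p = 0.0075). Without wild-type polysomal replicate 2 its adjusted p was 0.057.

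Tfeb was at 5.46, 5.18 and 5.16 log2 on the knockout polysomal arrays, against 6.52 and 5.56 on the wild-type polysomal arrays, a fall of 0.77 (SE 0.23, limma adjusted p = 0.049). This rests mainly on the first wild-type array, and the call was lost when any 1 of 10 of the 11 arrays was left out, with an adjusted p of up to 0.27. For Tfeb in total RNA the arrays were at 5.05, 5.04 and 5.18 in knockout, against 5.22, 5.08 and 5.26 in wild type. The count of 4 became 2 without wild-type polysomal replicate 1 and 7 without wild-type total replicate 3, which enters through the shared estimate of the spread. Over all genes 755 were lower without wild-type total replicate 3, against 547 with every array. Of 11 alveolar macrophage markers 3 also fell in polysomal RNA, among them Chil3 (-0.89, SE 0.17) and Ear1 (-0.80, SE 0.19), with list means of 11.41 to 11.49 in knockout, against 11.71 to 11.89 in wild type. Of 8 interstitial macrophage and monocyte markers 2 fell and 1 rose. Over all genes 6.77% fell and 8.36% rose in polysomal RNA, and the part of these cells in the falls was not tested.

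None of the members that rose in total RNA passed in polysomal RNA. No tested member at all was higher there, against 8.36% of all genes. How many of the 1393 genes that rose in total RNA passed there was not counted. Ctsd differed by -0.03 (SE 0.19, limma adjusted p = 0.93), Ctsz by 0.08 (SE 0.15, adjusted p = 0.78), Atp6v1a by 0.17 (SE 0.20, adjusted p = 0.64) and Atp6v0d1 by -0.11 (SE 0.16, adjusted p = 0.70). Pld3 was at -0.55 (SE 0.41, adjusted p = 0.42), with its 3 knockout arrays below both wild-type arrays. Psap was at -0.21 (SE 0.14, adjusted p = 0.36) and Mcoln1 at -0.29 (SE 0.16, adjusted p = 0.24). A p that misses the threshold does not show that the genotypes were equal, and with 2 wild-type arrays the SE of the polysomal difference was 0.07 to 0.50 over the 48 members.

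**Figure D3:**
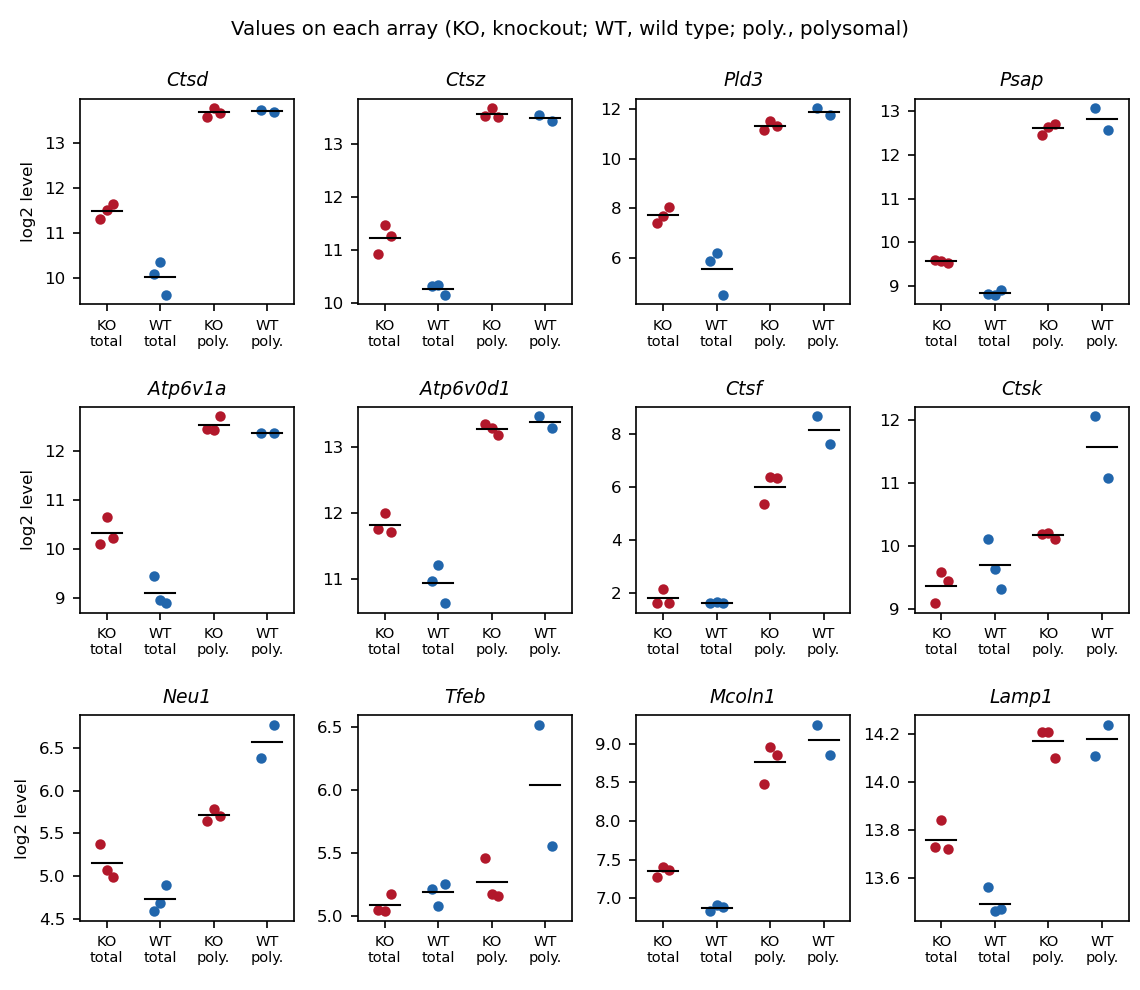
Each panel is 1 lysosomal gene, each point 1 array and each line the group mean, on a log2 axis that has its own range in each panel, for total RNA and polysomal (poly.) RNA of knockout (KO, red) and wild type (WT, blue). In Ctsd, Ctsz, Atp6v1a and Atp6v0d1 the genotypes stand apart in total RNA and lie close in polysomal RNA, while in Ctsf, Ctsk and Neu1 the knockout arrays lie below the wild-type arrays in polysomal RNA.

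Whether the genotype difference itself depended on the kind of RNA was tested by the interaction, the knockout minus wild-type difference in polysomal RNA less that in total RNA. It was negative for 16 of the 48 tested members and positive for none that passed, with a median of -0.39. Over all genes 22.3% passed, 8.06% above 0 and 14.2% below 0, with a median of -0.13. The 16 were Ctsa, Ctsd, Ctsf, Ctsz, Lgmn, Pld3, Neu1, Man2b1, Smpd1, Psap, Npc1, Mcoln1, Atp6v0d1, Atp6v1a, Atp6v1b2 and Atp6ap1. By role these were 5 of 14 proteases, the 1 tested nuclease, 2 of 8 glycan hydrolases, 3 of 10 lipid genes, 1 of 6 membrane proteins and regulators and 4 of 9 proton pump genes. This comparison uses the same arrays as those above, so its values are not independent of the rise in total RNA or of the polysomal excess.

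The largest was Pld3 at -2.73 (SE 0.56, limma adjusted p = 0.010), made of a total RNA rise of 2.17 and a polysomal difference of -0.55. Ctsf was at -2.29 (SE 0.47, adjusted p = 0.011), nearly all of it from polysomal RNA, where it fell by 2.13, with total values at the floor in both genotypes. Ctsd was at -1.49 (SE 0.25, adjusted p = 0.0063), nearly all of it from total RNA. Neu1 took part from both sides, at -1.28 (SE 0.21, limma adjusted p = 0.0058), with a polysomal fall of 0.86 and a total RNA difference of 0.42 that did not pass (adjusted p = 0.059). Atp6v1a was at -1.06 (SE 0.27, adjusted p = 0.024), Atp6v0d1 at -0.99 (SE 0.22, adjusted p = 0.014) and Psap at -0.95 (SE 0.19, adjusted p = 0.0098). All 5 tested members with the extended E-box were among the 16, at a median of -0.99, as were 9 of the 36 that had a window without it, at a median of -0.32. The interaction of other genes with the extended form was not counted, so this too has no background share.

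The calls for Ctsd, Ctsf, Lgmn, Pld3, Neu1, Smpd1, Psap and Atp6v0d1 held whichever array was left out, and the other 8 were each lost without at least 1 array. Without wild-type polysomal replicate 1 there were 9 calls, of which 1 was above 0. Atp6ap1 (-0.49, SE 0.15, limma adjusted p = 0.040) was the least stable, passing in only 1 of the 11 fits that each lacked an array. Of cell type markers, 5 of 8 endothelial, 5 of 8 interstitial macrophage and monocyte and 3 of 6 antigen presenting markers also passed below 0. So did 2 of 9 alveolar type 2, 2 of 11 alveolar macrophage, 2 of 6 neutrophil and 2 of 6 alveolar type 1 markers. The counts were 2 of 6 for club and ciliated and 1 of 6 for fibroblast markers. No heart muscle, lymphocyte or red cell marker passed. Over all genes 14.2% were below 0, and the part of these cell types in the result was not tested.

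The lists of other lysosomal pathway genes, outside the 56, held 125 names, with Tmem55b and Pip4p1 naming the same gene, and 87 genes were tested. Of these, 14 rose and 1 fell in total RNA (median 0.15), 3 rose and 8 fell in polysomal RNA (median -0.07), and 2 were above and 16 below 0 in the interaction (median -0.26). Over all genes 17.2% rose and 5.97% fell in total RNA, 8.36% rose and 6.77% fell in polysomal RNA, and 8.06% were above and 14.2% below 0 in the interaction. The share that rose in total RNA was no higher than that over all genes. Between polysomal and total RNA, 54 of the 87 were higher and 12 lower in wild type (median 0.83). In knockout 50 were higher and 11 lower (median 0.53). Over all genes 44.5% were higher and 27.9% lower in wild type, and 39.5% and 25.7% in knockout. The other membrane proteins had medians of only 0.08 in wild type and 0.12 in knockout, and the regulators and autophagy genes 0.06 and -0.16. Among the other hydrolases, Hyal2, a hyaluronidase, rose in total RNA (0.66, SE 0.15), and Arsk fell (-0.70, SE 0.18). Arsk, the 1 gene of the 87 that fell there, met the brightness filter through wild-type total RNA alone. Its highest value was 5.24 there, and 4.63 in knockout total RNA. Its entry into the test therefore depended partly on the fall itself. In polysomal RNA Fuca1, a fucosidase, fell by 0.42 (SE 0.11, limma adjusted p = 0.028). It was at 4.73 to 4.97 log2 on the knockout polysomal arrays, against 5.13 to 5.33 on the wild-type ones. Fuca1 was bright enough to test only on the wild-type polysomal arrays, so its fall was part of what admitted it to the test. The other membrane proteins had 17 tested names, with Pip4p1 there under 2 of them. Of these proteins, Laptm4a rose in total RNA (0.35, SE 0.10), and Cln3, the protein lost in juvenile Batten disease, fell in polysomal RNA (-0.83, SE 0.14), as did Slc11a2 (-0.66, SE 0.19), an iron transporter, and Slc38a9 (-0.30, SE 0.08), an arginine sensor for mTORC1.

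Among 10 other proton pump genes, Atp6v1f (0.72, SE 0.12) and Atp6v0e (0.57, SE 0.13) rose in total RNA, and Atp6v1f also rose in polysomal RNA (0.45, SE 0.13), where Tcirg1 (-0.43, SE 0.12) and Atp6v1c2 (-0.76, SE 0.22) fell. Of 23 genes that sort cargo to lysosomes, 4 rose in total RNA: the clathrin adaptor subunits Ap1s1 (1.25, SE 0.18) and Ap1b1 (0.81, SE 0.13), the adaptor Gga1 (0.55, SE 0.11) and the tethering subunit Vps11 (0.52, SE 0.09). Vps11 fell in polysomal RNA (-0.47, SE 0.11). Of 15 regulators and autophagy genes 3 rose in total RNA and none fell. They were the autophagosome proteins Gabarap (1.60, SE 0.19), Gabarapl1 (0.77, SE 0.12) and Map1lc3a (0.44, SE 0.10), while Wipi1 (0.64, SE 0.10) and Fnip1 (0.56, SE 0.16) rose in polysomal RNA. Of 3 tested inhibitors of lysosomal proteases Cstb, cystatin B, rose in total RNA (0.28, SE 0.08).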

How the data were processed

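Lung RNA of 11 one-colour Affymetrix arrays was analysed, in 4 groups taken from genotype and RNA kind in the labels. The deposited log2 values, 1 per probe set and array, were made by the authors with GCRMA, per the submitters' processing notes, and its version, the probe grouping and the genome build are not given in the sources used here. That they are on a log2 scale follows from their range (0.73 to 16.7, array medians 4.96 to 5.04). GCRMA corrects background, normalizes and summarises probes, so values near the floor understate differences. Of 26180 probe sets, named by RefSeq accession, 15228 matched 1 gene in the RefSeq table of GRCm38.p6, 10952 matched none, and 7538 repeated another row exactly.

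Probe sets with a log2 value of at least 5 on at least 2 arrays were tested (13802 probe sets, 8085 genes). limma (version 3.58.1, R 4.3.3) fitted the 4 group means to the 11 arrays, with 5 contrasts, on 7 residual degrees of freedom, two-sided, with Benjamini-Hochberg adjustment over all probe sets tested and a threshold of 0.05. All adjusted p-values come from this fit, SE is its standard error, and differences are in log2 units. The fit was tested on simulated data. The members and lists were chosen with earlier results of these data known. Members given array by array were, for each contrast and direction, the 5 of largest difference among those that passed without overlap of arrays (for the interaction, among those that passed), 1 member per role, and 10 always named. From other lists up to 4 genes per contrast were taken by smallest p. Alternatives were other filters, scalings, thresholds, fits and blocks, and leaving out each array. Sequences are from RefSeq. Plots were made in Python 3.11.15 (matplotlib 3.10.9, pandas 2.3.3). Some items of the other lists are not reported here.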

Additional observations from a re-analysis of the deposited data

Results flagged for a closer look

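For 16 lysosomal genes the knockout minus wild-type difference in polysomal RNA was lower than that in total RNA by limma's interaction test (adjusted p under 0.05, over all probe sets). The interaction was -0.64 for Ctsa, -1.49 for Ctsd, -2.29 for Ctsf, -0.87 for Ctsz, -0.87 for Lgmn and -2.73 for Pld3. It was -1.28 for Neu1, -0.62 for Man2b1, -0.85 for Smpd1, -0.95 for Psap and -0.93 for Npc1. It was -0.76 for Mcoln1, -0.99 for Atp6v0d1, -1.06 for Atp6v1a, -0.87 for Atp6v1b2 and -0.49 for Atp6ap1. Over all genes tested 14.2% were below 0 in the same test. No group held 4 or more arrays, so single arrays could not be tested as outliers.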

How the results depend on the processing

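Ranges over fits that each lacked 1 array are given here for the fits that kept the 2 wild-type polysomal arrays. The fits without either of these leave 1 array in that group. These ranges therefore do not show how far the contrasts that use that group rest on either array. The count of members that passed between polysomal and total RNA then ran over 39 to 41 in knockout and 41 to 42 in wild type. Over all genes the shares that passed ran over 59.1% to 67.9% in knockout and 69.6% to 72.5% in wild type. The size of change asked for mattered more there: with at least 1.5-fold, 29 members passed in knockout and 38 in wild type, against 50.8% and 61.5% of all genes. After quantile normalization 34 were higher and 1 lower in knockout, and 37 higher and 2 lower in wild type. Over all genes 2876 were then higher and 2383 lower in knockout, and 3217 higher and 2687 lower in wild type. Over the same fits that lacked 1 array, the count ran over 9 to 14 for the rise in total RNA. It ran over 3 to 7 for polysomal RNA and 11 to 18 for the interaction. The shares of all genes that passed ran over 11.9% to 26.7%, 9.36% to 20.3% and 13.8% to 25.8%. At an adjusted p threshold of 0.01 the counts were 8 in total RNA, 2 in polysomal RNA and 5 in the interaction. Over all genes 9.14%, 4.58% and 5.85% passed that threshold, so the polysomal count was close to the share over all genes. Fitted on its own groups alone, the polysomal comparison gave 1 call, against 8.46% of all genes, with fewer samples behind the spread. With the replicate set letter as a block, within each RNA kind or over all arrays, 10 interaction calls were made in place of 16. Over all genes the share that passed fell as well, to 14.6% and 15.9% in place of 22.3%, and the cause was not tested. The labels do not explain the letter. Deviations of same-letter arrays from their group means correlated at -0.05, 0.04, 0.03 and -0.04 in total RNA and 0.12 and 0.10 in polysomal RNA. Different-letter arrays were at -0.046 to 0.051 in total RNA and -0.117 to 0.003 in polysomal RNA. The deviations of the 2 wild-type polysomal arrays mirror each other, so these values cannot decide whether letters pair the arrays. The main fit does not pair them. The block within RNA kind cannot give polysomal minus total differences, and the groups compared alone cannot give the interaction. Quantile normalization turned 4 small polysomal minus total differences: Npc2 (-0.01), Lamp2 (-0.39) and the marker Ear2 (-0.36) in wild type, and Atp6v1e1 (-0.01) in knockout. It moved the median over all genes in the wild-type comparison to 0.06, and equal array medians moved it to 0.11, against 0.22 as deposited. Low signal limits Ctsf, Sppl2a and Galns in total RNA.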
